A study of Mus musculus with 12 samples.

Results

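The 39 genes described here build and drive the mitotic spindle, attach chromosomes to it through the kinetochore, and divide the cell. They were followed in 3 mouse cell lines, without treatment and after SX-682, an antagonist of the chemokine receptors CXCR1 and CXCR2. Members were matched by gene symbol, and each of the 39 symbols named 1 row among the 34513 genes of the deposited count table. The list was drawn up with earlier results of these data known. Its counts set against the shares of all genes are therefore descriptions, not independent tests. All 39 passed the filter on low counts, as did 18338 genes in all. The lines were Melan-A (MelanA in the labels), a murine line that does not form tumors, and the murine melanoma lines B16F0 and B16F10, of which B16F10 descends from B16 by selection in mice for lung colonies. Each line gave 2 control libraries, labelled as having no treatment, and 2 libraries from cells treated with SX-682, so that there were 6 groups of 2 and 12 libraries. The dose and duration of SX-682 for these cultures, and any vehicle in the controls, are not given in the sources used here. Each kind of cell is represented by 1 line, so a difference between tumorigenic and non-tumorigenic cells cannot be told apart from a difference between these lines. The labels do not say whether the 2 libraries of a group came from separate cultures, so every p-value measures the spread between these libraries, which may be technical.

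In mitosis, the chromosomal passenger complex corrects faulty attachments of chromosomes to microtubules, and the spindle checkpoint holds back the anaphase-promoting complex, a ubiquitin ligase, until every kinetochore is attached. Its activator Cdc20 then starts the destruction of securin, which frees separase to cut the cohesin rings that hold sister chromatids together. The central spindle and a contractile ring afterwards divide the cytoplasm. Transcripts of most of these genes are made in late S, G2 and M phase and are kept low in resting cells by the DREAM complex, which binds an element named CHR near their start sites. RNA from whole cultures was measured, so fewer cells in these phases and less RNA per dividing cell cannot be told apart.

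Library totals lay between 48876982 and 85322092 counts, with a median of 66943832. At that depth the floor of 3 counts in a library was 0.033 to 0.0623 CPM, far below every member, and it covers counting error only. CPM are counts scaled to a common library size, with library sizes adjusted by TMM, a method that assumes that most genes do not differ. The replicates of each group differed by more than counting noise, with a chi-square per gene of 2.82 to 4.97, so no library was treated as a copy of another. Melanocyte markers were checked first. All 8 markers together summed to 19300 to 19400 CPM in B16F0 controls and 25100 to 25200 CPM in B16F10 controls, but to 1350 to 1380 CPM in Melan-A controls. Tyr, the rate-limiting enzyme of melanin synthesis, was at 0.892 and 0.76 CPM in the Melan-A controls against 514 to 517 CPM in the B16F0 controls. It was at 70.4 and 65.8 CPM in the B16F10 controls. The melanosome gene Pmel was at 7.53 and 8.7 CPM in the Melan-A controls against 4550 and 4480 CPM in the B16F0 controls. Of the 8 melanocyte markers, 7 were called higher in B16F0 controls than in Melan-A controls and 1 lower (35.3% and 40.6% over all genes). The melanocyte regulators Sox10 and Mitf were present in the Melan-A controls at 655 and 685 CPM and at 103 and 101 CPM. Sox10 was the marker that was lower in the B16F0 controls, at 445 and 460 CPM, and it was at 582 and 589 CPM in the B16F10 controls. Mitf was at 371 and 362 CPM in the B16F0 controls and 420 and 420 CPM in the B16F10 controls. With SX-682 the melanocyte marker sum was 1350 to 1360 CPM in Melan-A, 16200 to 16400 CPM in B16F0 and 15300 to 15500 CPM in B16F10. The 6 fibroblast markers summed to 114 to 115 CPM in Melan-A controls and 93.5 to 94.8 CPM with SX-682, to 16.1 to 16.8 CPM in both B16F0 groups and to 8.43 to 9.72 CPM in both B16F10 groups. The 6 keratinocyte markers stayed at or below 8.43 CPM in sum. Of the leukocyte markers found (5 of 6) and the 5 endothelial markers, Cd68 and Vwf held nearly all of the signal, while the defining leukocyte marker Ptprc was at most 0.255 CPM, Cd3e was at 0 in all B16 libraries and Krt10 was at 0 there too. Leukocyte markers summed to 16.2 CPM in Melan-A controls and 44.1 to 45.4 CPM with SX-682, 10.1 to 11.9 and 13.8 to 15.8 CPM in B16F0, and 25.4 to 26.6 and 24 to 25 CPM in B16F10. Endothelial markers summed to 17.6 to 18.7 and 26.7 to 27.3 CPM in Melan-A, 5.41 to 5.55 and 8.32 to 8.41 CPM in B16F0, and 53.8 to 54.3 and 59.2 to 61.8 CPM in B16F10. The part of these marker levels in the results below was not tested.

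Without treatment, the summed level of the mitotic genes was highest in Melan-A and lowest in B16F10. It was 7067 and 6976 CPM in the Melan-A controls, 5369 and 5424 CPM in the B16F0 controls, and 4698 and 4695 CPM in the B16F10 controls, so that the 3 lines did not overlap. Top2a held the largest part of the sum, with 1290 and 1270 CPM in the Melan-A controls. Gene by gene, 19 of the 39 members had this order of lines with all 3 steps called (7.21% of all genes). SX-682 lowered the sum to 4153 and 4160 CPM in Melan-A, to 4331 and 4383 CPM in B16F0, and to 4411 and 4462 CPM in B16F10. The treated libraries of the 3 lines thus lay closer together than the controls did.

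SX-682 lowered all 39 members in Melan-A (24.7% of all genes tested were lowered there and 23.4% raised), with calls made at an edgeR quasi-likelihood adjusted p below 0.05. Their median log2 fold change was -0.73, a level that fell by 39.6%, and the members ranged from -1.22 for Cenpf to -0.30 for Ndc80. In B16F0 the drug lowered 36 members and raised 0, with 3 not called (25% of all genes were lowered and 25.1% raised), and the median was -0.35. In B16F10 it lowered 17 and raised 9, with 13 not called (25.3% of all genes were lowered and 25.5% raised), and the median was -0.06 with a range from -0.61 to 0.38. The count of members raised in B16F10 was near the share over all genes. The median over all genes tested was 0 in each line, so the members' medians in Melan-A and B16F0 lay below that of the genes as a whole.

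The individual libraries gave the same picture. In Melan-A both SX-682 libraries lay below both controls for all 39 members (36.7% of all genes lay below in this way and 36% above). In B16F0 they did so for 38 members and overlapped for 1, Mki67 (35% below and 35.4% above over all genes). In B16F10 they lay below for 20 members, above for 12 and overlapped for 7 (34.2% below and 35.2% above). The 12 above were no more than the share over all genes. The heat map of levels and the plot of changes by line show this gene by gene.

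**Figure D1:**
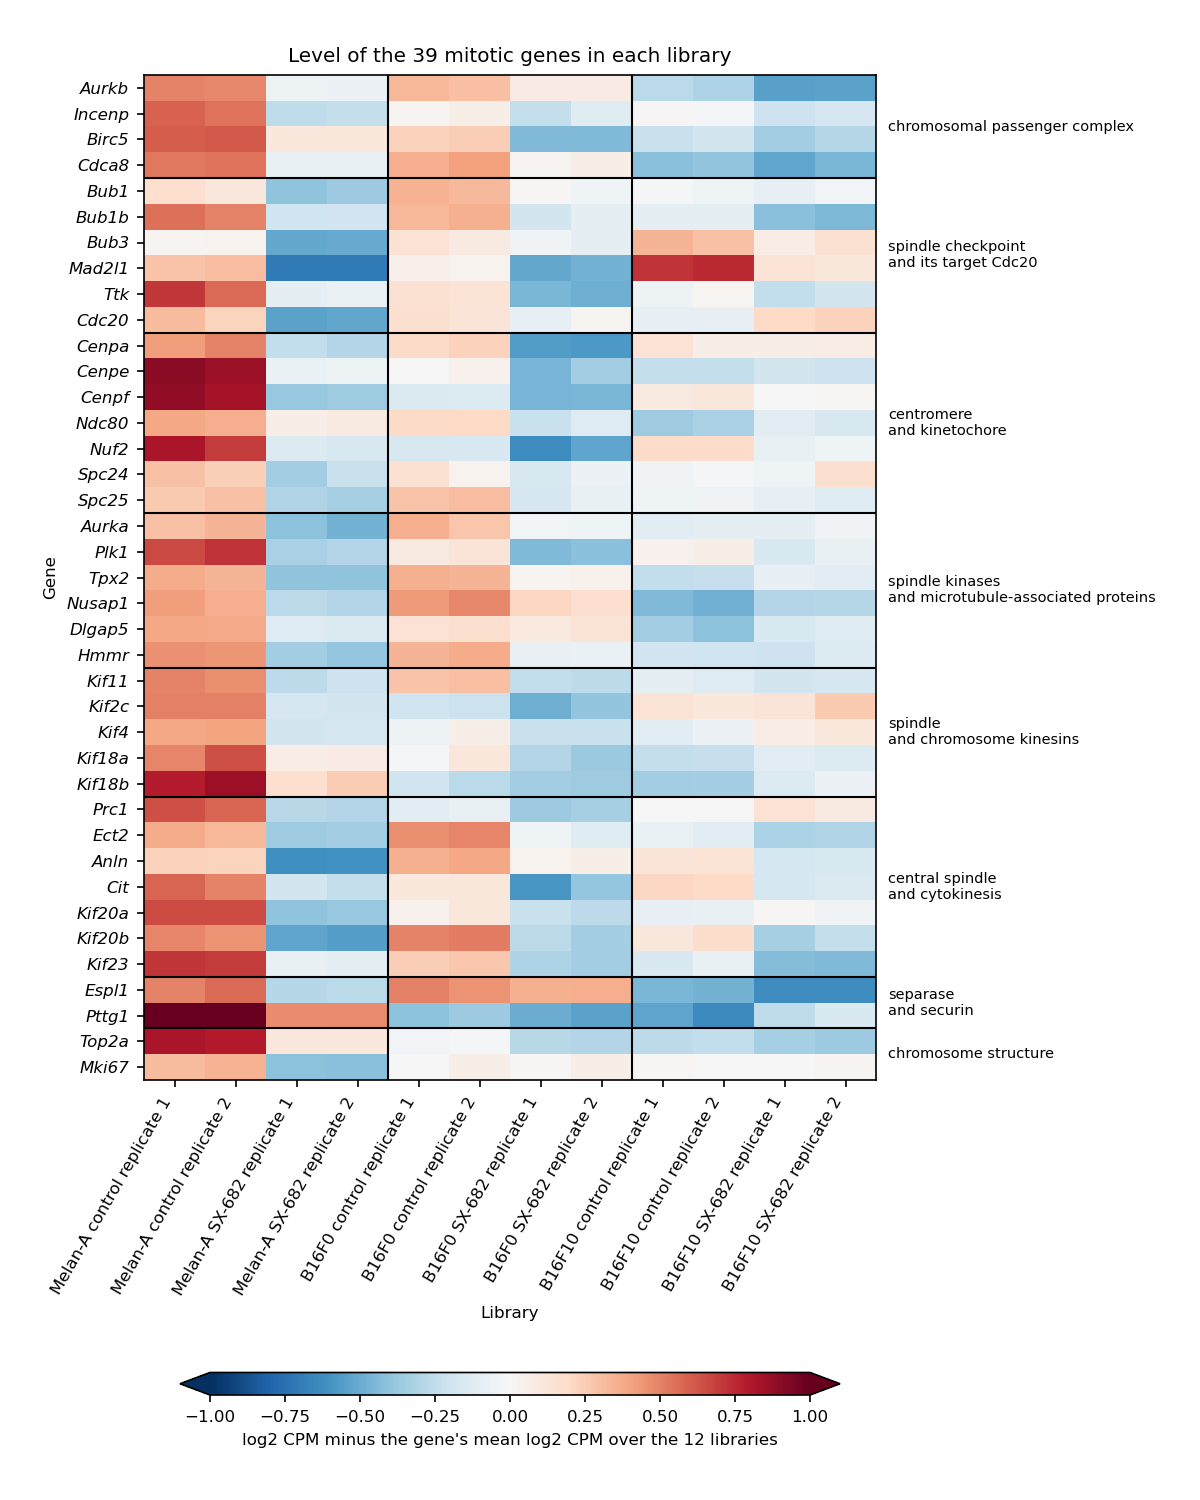
Level of each of the 39 genes (rows, grouped by role) in each of the 12 libraries (columns), as log2 CPM minus the gene's mean over the 12 libraries, with red above and blue below the mean. The 2 Melan-A control columns are the reddest, and Mad2l1, Pttg1 and Espl1 stand apart from the genes around them.

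**Figure D2:**
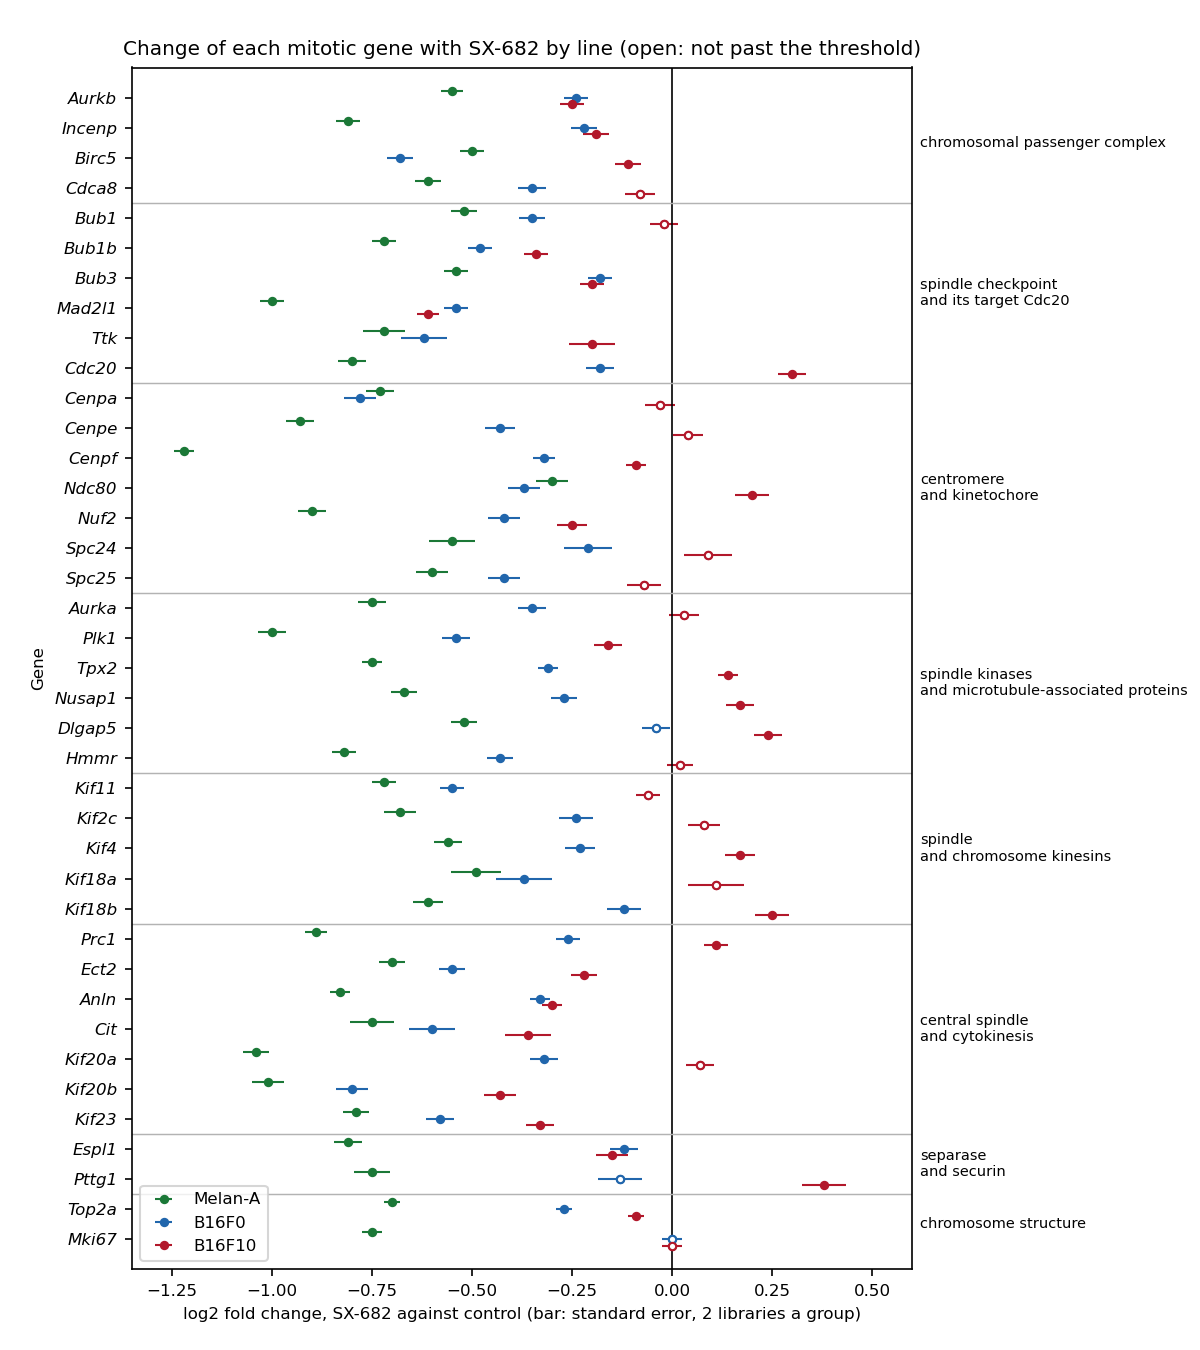
Log2 fold change of SX-682 against control (horizontal axis) for each gene (vertical axis) in Melan-A, B16F0 and B16F10. Bars are standard errors with 2 libraries a group and open points did not pass an adjusted p of 0.05. For 32 of the 39 genes the points run from Melan-A on the left through B16F0 to B16F10 on the right.

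The response itself was compared between lines. The change in Melan-A was more negative than the mean change of both B16 lines for all 39 members (18.7% of all genes had a higher change in B16 than in Melan-A and 17.1% a lower one), with a median difference of 0.52 on the log2 scale and a range from 0.11 for Birc5 to 1.02 for Cenpf. The call for Birc5 was lost when 10 of the 12 libraries were each left out in turn, with differences of 0.08 to 0.10 and edgeR adjusted p of 0.055 to 0.17. The change in B16F10 was higher than in B16F0 for 32 members and lower for 0, with 7 not called (15.3% higher and 14.9% lower over all genes), and the median difference was 0.35. The response differed among the 3 lines by an F-test for all 39 members (47.4% of all genes). In 32 members the change was lowest in Melan-A, intermediate in B16F0 and highest in B16F10 (18.5% of all genes had this order). The 7 with another order were Aurkb, Birc5, Bub3, Mad2l1, Cenpa, Ndc80 and Espl1. Of these, Birc5, Cenpa and Ndc80 had the larger fall in B16F0, by log2 fold changes of -0.68, -0.78 and -0.37 there against -0.50, -0.73 and -0.30 in Melan-A. The difference between these 2 lines alone was not tested.

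By their calls the members fell into 4 patterns. SX-682 lowered 17 of them in all 3 lines (11.7% of all genes tested): Aurkb, Incenp, Birc5, Bub1b, Bub3, Mad2l1, Ttk, Cenpf, Nuf2, Plk1, Ect2, Anln, Cit, Kif20b, Kif23, Espl1 and Top2a. It lowered 7 in Melan-A and B16F0 but raised them in B16F10 (0.534% of all genes): Cdc20, Ndc80, Tpx2, Nusap1, Kif4, Kif18b and Prc1. Another 12 were lowered in Melan-A and B16F0 with no call in B16F10 (2.14% of all genes): Cdca8, Bub1, Cenpa, Cenpe, Spc24, Spc25, Aurka, Hmmr, Kif11, Kif2c, Kif18a and Kif20a. The last 3 were lowered in Melan-A with no call in B16F0 (7.13% of all genes), and of these Dlgap5 and Pttg1 were raised in B16F10 and Mki67 was not called there.

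Promoter sequence was read for the members because they fell together in Melan-A. RefSeq windows on GRCm38.p6, from 250 bases before to 50 after a start site, were matched for 33 members; Incenp, Spc24, Aurkb, Kif20a, Tpx2 and Dlgap5 had none. The windows were searched on both strands for TTTGAA, the letters of the CHR element, and for CCAAT, the letters bound by the factor NF-Y. The motifs can share at most 1 letter at their ends, and each was counted separately. TTTGAA was in the windows of 24 of 33 members (72.7%), against 20.2% of the 27025 genes with a window and 14.9% of the 12315 of these that were tested. Within 50 bases of the start site it was in 22 of 33 (66.7%), against 5.72% of all genes with a window and 4% of those tested. CCAAT was in 22 of 33 (66.7%), against 41.1% and 43.1%. Both were in 60.6% of members, against 7.97% and 6.24%. A match is a description of letters, not a site or a cause. In 25 of the 33 members a window's start site lay within 50 bases of the gene start in the count table, and 19 of these 25 held TTTGAA.

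The stretches below run from 100 bases before to 50 after the start site and are shown because they set genes with like or unlike changes side by side. Capitals mark TTTGAA or its reverse complement TTCAAA, and CCAAT. Plk1 and Cenpf are among the 5 members that fell by a log2 of 1 or more in Melan-A, Prc1 and Cdc20 were lowered in Melan-A and raised in B16F10, Ndc80 and Nuf2 encode partners in 1 complex but moved apart in B16F10, and Mad2l1 fell in all lines.
Plk1 (GRCm38.p6, chr7:122159335-122159484, plus strand): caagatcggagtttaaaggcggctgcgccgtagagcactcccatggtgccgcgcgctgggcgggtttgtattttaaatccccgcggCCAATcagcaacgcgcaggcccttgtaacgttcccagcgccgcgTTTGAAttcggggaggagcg
Cenpf (GRCm38.p6, chr1:189688037-189688186, minus strand): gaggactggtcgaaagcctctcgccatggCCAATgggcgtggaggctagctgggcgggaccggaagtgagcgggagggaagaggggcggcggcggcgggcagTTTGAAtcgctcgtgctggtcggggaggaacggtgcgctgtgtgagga
Prc1 (GRCm38.p6, chr7:80294351-80294500, plus strand): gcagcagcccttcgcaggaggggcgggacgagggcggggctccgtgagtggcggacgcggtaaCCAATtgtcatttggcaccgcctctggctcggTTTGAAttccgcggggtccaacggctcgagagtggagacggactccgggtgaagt
Cdc20 (GRCm38.p6, chr4:118437294-118437443, minus strand): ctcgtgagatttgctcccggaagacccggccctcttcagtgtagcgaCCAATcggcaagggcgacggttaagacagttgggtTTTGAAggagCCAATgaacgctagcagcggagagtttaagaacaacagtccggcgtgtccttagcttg
Ndc80 (GRCm38.p6, chr17:71526808-71526957, minus strand): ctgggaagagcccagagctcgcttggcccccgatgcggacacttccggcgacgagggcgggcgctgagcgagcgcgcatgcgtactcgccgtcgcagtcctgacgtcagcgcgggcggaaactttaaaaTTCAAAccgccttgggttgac
Nuf2 (GRCm38.p6, chr1:169531415-169531564, minus strand): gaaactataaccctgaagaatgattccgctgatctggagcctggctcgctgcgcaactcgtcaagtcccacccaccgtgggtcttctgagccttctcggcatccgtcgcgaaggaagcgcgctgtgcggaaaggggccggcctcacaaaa
Mad2l1 (GRCm38.p6, chr6:66535121-66535270, plus strand): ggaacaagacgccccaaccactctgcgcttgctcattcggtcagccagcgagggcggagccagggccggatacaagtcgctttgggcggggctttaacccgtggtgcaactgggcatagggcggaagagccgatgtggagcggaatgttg

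Plk1, Cenpf, Prc1 and Cdc20 each held TTTGAA on the gene's strand, beginning 31 and 3 bases after the start site in Plk1 and Cenpf and at positions -5 and -18 in Prc1 and Cdc20, and each had CCAAT upstream of it. Cdc20 had another CCAAT between its TTTGAA and the start site. Ndc80 held the element as TTCAAA at position 30 and had no CCAAT, and neither motif was in the windows of Nuf2 and Mad2l1. The 24 members with TTTGAA had medians of -0.72 (Melan-A), -0.35 (B16F0) and -0.08 (B16F10) for the log2 fold change, and the 9 without it -0.75, -0.42 and -0.02. The RefSeq start site of Mad2l1 lies 169 bases before the gene start in the count table, so its stretch lies outside the gene as counted. Pttg1 and Cit, also without TTTGAA, have RefSeq start sites 270 and 378 bases after that gene start. The windows of Mad2l1, Pttg1 and Cit therefore do not hold the gene start as counted, and their lack of TTTGAA does not describe it. The same holds for Kif2c, Cdca8 and Kif4, which are among the 24 with TTTGAA. Their RefSeq start sites lie 3867, 2394 and 328 bases after the gene start, so their matches do not describe it either.

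The chromosomal passenger complex, made of the kinase Aurkb, the scaffold Incenp, and Birc5 (survivin) and Cdca8 (borealin), which seat it on chromatin, was lowered whole in Melan-A and in B16F0 and in 3 of 4 members in B16F10. Over all genes tested, 24.7%, 25% and 25.3% were lowered in Melan-A, B16F0 and B16F10. In the same order, 23.4%, 25.1% and 25.5% were raised. These shares apply to each role group below as well. Aurkb (ENSMUSG00000020897.12, chr11:69045647-69051664) was at 169 and 167 CPM in Melan-A controls and 116 and 115 CPM with SX-682, a log2 fold change of -0.55 ± 0.028 (SE). It was at 151 and 148 CPM against 127 and 127 CPM in B16F0 (-0.24 ± 0.029) and at 99.3 and 96.6 CPM against 82.3 and 82.8 CPM in B16F10 (-0.25 ± 0.030). Treated and control libraries were apart in each line, and the falls in the B16 lines did not differ by more than their error (difference -0.01 ± 0.042). Incenp (ENSMUSG00000024660.9, chr19:9872296-9899551) was at 252 and 243 CPM in Melan-A controls and 140 and 142 CPM with SX-682. In B16F0 it was at 170 and 174 CPM against 142 and 154 CPM, and in B16F10 at 169 and 166 CPM against 145 and 149 CPM. All 6 treated libraries of Incenp lay between 140 and 154 CPM, although the Melan-A controls stood far above the others. Birc5 (ENSMUSG00000017716.15, chr11:117849251-117855743) fell most in B16F0, from 108 and 109 CPM to 67.6 and 67.9 CPM (-0.68 ± 0.033). It was at 140 and 141 CPM against 99.2 and 99.5 CPM in Melan-A (-0.50 ± 0.031) and at 78.7 and 81.1 CPM against 72.3 and 75.5 CPM in B16F10 (-0.11 ± 0.033, edgeR adjusted p = 0.0051). The B16F10 call for Birc5 was lost without SX-682 replicate 1 (-0.09, edgeR adjusted p = 0.076) and without control replicate 2 (-0.10, edgeR adjusted p = 0.056). Cdca8 had log2 fold changes of -0.61, -0.35 and -0.08 in Melan-A, B16F0 and B16F10, the last not called.

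The spindle checkpoint genes split from their target. The kinases Bub1 and Ttk, the adaptor Bub3, Bub1b and Mad2l1 produce the inhibitor of the anaphase-promoting complex, and Cdc20 is both its target and the activator of the ligase. All 6 genes were lowered in Melan-A and in B16F0. In B16F10, 4 of the 5 inhibitor genes were lowered, Bub1 was at -0.02 ± 0.034 without a call, and Cdc20 was raised. Mad2l1 (ENSMUSG00000029910.14, chr6:66535390-66547220) was at 161 and 164 CPM in Melan-A controls and 81.1 and 81 CPM with SX-682 (-1.0 ± 0.029). It went from 137 and 135 CPM to 92.5 and 95.1 CPM in B16F0 (-0.54 ± 0.029) and from 218 and 221 CPM to 145 and 143 CPM in B16F10 (-0.61 ± 0.028). Mad2l1 was the member with the deepest fall in B16F10, and its level there was the highest of the 3 lines with and without the drug. Cdc20 (ENSMUSG00000006398.15, chr4:118432901-118437352) was at 137 and 128 CPM in Melan-A controls and 75.6 and 76.8 CPM with SX-682 (-0.80 ± 0.035). It was at 123 and 120 CPM against 104 and 112 CPM in B16F0 (-0.18 ± 0.035) and at 104 and 104 CPM against 126 and 129 CPM in B16F10 (0.30 ± 0.035, edgeR adjusted p = 1.8e-08). The control and treated libraries of Cdc20 were apart in every line, downwards in Melan-A and B16F0 and upwards in B16F10. Bub3 (ENSMUSG00000066979.6, chr7:131560222-131571895) was at 173 and 174 CPM against 119 and 120 CPM in Melan-A, 188 and 181 CPM against 166 and 159 CPM in B16F0, and 215 and 208 CPM against 179 and 189 CPM in B16F10. Its log2 fold changes were -0.54, -0.18 and -0.20. Bub1 had log2 fold changes of -0.52 and -0.35 in Melan-A and B16F0. Bub1b changed by -0.72, -0.48 and -0.34 and Ttk by -0.72, -0.62 and -0.20 in the same order of lines.

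Kinetochore genes held both the deepest and the shallowest fall in Melan-A. Cenpa is the histone H3 variant that marks the centromere, Cenpe a kinesin that carries chromosomes to the spindle equator, Cenpf a large protein of the outer kinetochore, and Ndc80, Nuf2, Spc24 and Spc25 form the NDC80 complex that grips microtubules. Cenpf (ENSMUSG00000026605.14, chr1:189640606-189688086) was at 383 and 369 CPM in Melan-A controls and 159 and 162 CPM with SX-682, the deepest fall of any member (-1.22 ± 0.026, edgeR adjusted p = 3.4e-25). It was at 187 and 189 CPM against 150 and 151 CPM in B16F0 (-0.32 ± 0.027) and at 220 and 224 CPM against 208 and 210 CPM in B16F10 (-0.09 ± 0.026). With SX-682 its level in Melan-A lay between the levels of the B16 lines, where it had been far above both in controls. Cenpe changed by -0.93, -0.43 and 0.04 (not called) and Cenpa by -0.73, -0.78 and -0.03 (not called).

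The 4 NDC80 complex genes, whose proteins assemble in equal number, did not move by equal amounts. In Melan-A, Nuf2 went from 147 and 136 CPM to 75.9 and 74.9 CPM (-0.90 ± 0.036), while Ndc80 went from 66.7 and 65.9 CPM to 53.4 and 54.3 CPM (-0.30 ± 0.039), the smallest fall of any member there. Spc24 and Spc25 changed by -0.55 ± 0.058 and -0.60 ± 0.040. In B16F10 Ndc80 rose from 40 and 40.9 CPM to 47.3 and 45.7 CPM (0.20 ± 0.043, edgeR adjusted p = 0.00021), and Nuf2 fell from 95.2 and 95.2 CPM to 79.4 and 81 CPM (-0.25 ± 0.038, edgeR adjusted p = 1.7e-06). Spc24 (0.09 ± 0.060) and Spc25 (-0.07 ± 0.042) were not called in B16F10. In B16F0 the changes of Ndc80, Nuf2 and Spc25 were -0.37 to -0.42 and that of Spc24 was -0.21. Ndc80 and Nuf2 were chosen for this comparison after their values were seen.

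Among spindle kinases and microtubule-associated proteins, Plk1 and Aurka are the kinases that mature the centrosomes, Tpx2 activates Aurka on microtubules, and Nusap1, Dlgap5 and Hmmr bind and bundle spindle microtubules. All 6 were lowered in Melan-A and 5 in B16F0, where Dlgap5 was at -0.04 ± 0.034 without a call. In B16F10, Plk1 was lowered, Tpx2, Nusap1 and Dlgap5 were raised, and Aurka and Hmmr were not called. Plk1 (ENSMUSG00000030867.7, chr7:122159439-122169873) was at 141 and 148 CPM in Melan-A controls and 71.3 and 73.1 CPM with SX-682 (-1.0 ± 0.034). It was at 95.4 and 97.8 CPM against 65.8 and 66.8 CPM in B16F0 (-0.54 ± 0.036) and at 92.1 and 93.4 CPM against 80.5 and 85.1 CPM in B16F10 (-0.16 ± 0.035). The falls became smaller from line to line and the libraries were apart in each. Aurka (ENSMUSG00000027496.15, chr2:172356190-172370535) was at 98.1 and 101 CPM against 60.3 and 57.7 CPM in Melan-A, 103 and 97.1 CPM against 78.6 and 77.7 CPM in B16F0, and 74.2 and 74.9 CPM against 74.7 and 77.9 CPM in B16F10. Its B16F10 libraries overlapped (0.03 ± 0.037, edgeR adjusted p = 0.50). Tpx2 (ENSMUSG00000027469.16, chr2:152847964-152895321) was at 287 and 280 CPM against 168 and 168 CPM in Melan-A, 283 and 280 CPM against 226 and 228 CPM in B16F0, and 187 and 189 CPM against 210 and 205 CPM in B16F10. Tpx2 fell by 0.75 and 0.31 on the log2 scale in the first pair of lines and rose by 0.14 ± 0.026 in B16F10, while Aurka was not called there. Nusap1 changed by -0.67, -0.27 and 0.17 in the 3 lines, Dlgap5 by -0.52 in Melan-A and 0.24 in B16F10, and Hmmr by -0.82 and -0.43 with 0.02 in B16F10.

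**Figure D3:**
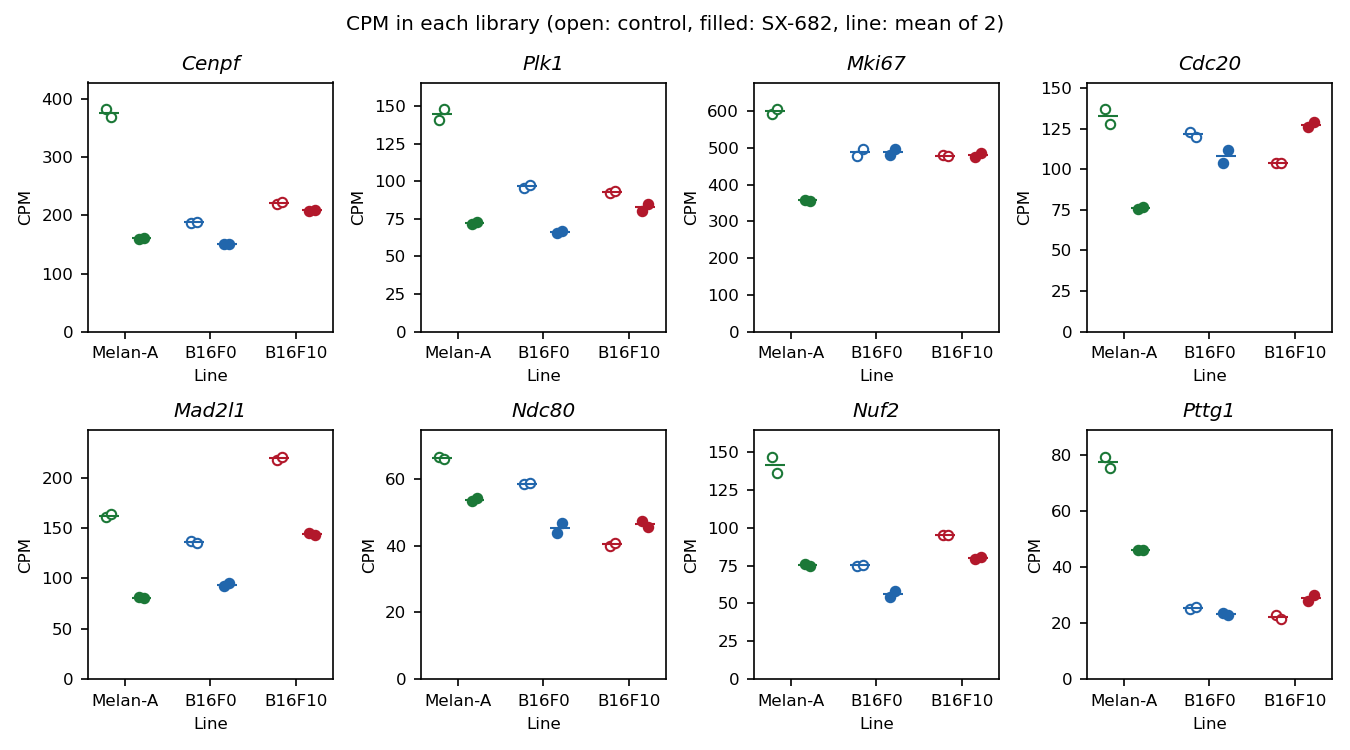
CPM (vertical axis, from 0) of 8 genes in each library of the 3 lines, with open points for controls, filled points for SX-682 and a line at the mean of 2. Of the 3 lines, Melan-A shows the largest fall for every gene but Ndc80. Mki67 is level in both B16 lines, and Cdc20, Ndc80 and Pttg1 rise in B16F10.

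The spindle and chromosome kinesins were lowered in 5 of 5 cases in Melan-A and in B16F0 (24.7% and 25% of all genes). In B16F10, 0 of 5 were lowered, and Kif4 (0.17 ± 0.038) and Kif18b were raised (25.3% and 25.5% of all genes). Kif11 slides antiparallel microtubules to keep the spindle bipolar, Kif2c takes microtubules apart at their ends, Kif4 is carried on chromosome arms, and Kif18a and Kif18b restrain microtubule length. Kif11 (ENSMUSG00000012443.4, chr19:37376403-37421859) was at 165 and 161 CPM against 97.6 and 101 CPM in Melan-A, 142 and 144 CPM against 98.3 and 97.5 CPM in B16F0, and 110 and 107 CPM against 103 and 104 CPM in B16F10. Its log2 fold changes were -0.72 ± 0.029, -0.55 ± 0.030 and -0.06 ± 0.031, the last without a call although the libraries did not overlap. All 6 treated libraries of Kif11 lay between 97.5 and 104 CPM. Kif18b (ENSMUSG00000051378.10, chr11:102905529-102925124) was at 114 and 120 CPM against 74.2 and 79 CPM in Melan-A, 57.7 and 54.8 CPM against 52 and 51.9 CPM in B16F0, and 52 and 52.2 CPM against 60.3 and 63.5 CPM in B16F10 (0.25 ± 0.042). Its Melan-A libraries were above those of both B16 lines in controls and with SX-682. Kif2c and Kif18a had log2 fold changes of -0.68 and -0.49 in Melan-A, -0.24 and -0.37 in B16F0, and 0.08 and 0.11 in B16F10, where neither was called. Kif4 changed by -0.56 in Melan-A and -0.23 in B16F0.

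The genes of the central spindle and cytokinesis had the lowest median of the 8 role groups in Melan-A, at -0.83, and 7 of 7 were lowered there and in B16F0. Prc1 bundles the overlapping microtubules of the central spindle, Kif23, Kif20a and Kif20b are kinesins that act there, Ect2 switches on the small GTPase RhoA, and Anln and Cit shape the contractile ring and midbody. In B16F10, 5 of 7 were lowered, Prc1 was raised (0.11 ± 0.029, against -0.89 in Melan-A and -0.26 in B16F0) and Kif20a was not called. The call for Prc1 was lost without B16F10 SX-682 replicate 1 (0.08, edgeR adjusted p = 0.072). Kif20b (ENSMUSG00000024795.11, chr19:34922361-34975745) had the largest mean fall over the lines. It was at 86.2 and 83.8 CPM against 42.6 and 42 CPM in Melan-A (-1.01 ± 0.039), 86.6 and 87.6 CPM against 51.2 and 48.6 CPM in B16F0 (-0.80 ± 0.040), and 66.4 and 69.2 CPM against 48.8 and 52.1 CPM in B16F10 (-0.43 ± 0.041). Kif20a (ENSMUSG00000003779.16) was at 140 and 140 CPM against 67.4 and 68.5 CPM in Melan-A (-1.04 ± 0.033), 92 and 96.5 CPM against 76.4 and 74.2 CPM in B16F0 (-0.32 ± 0.034), and 84.1 and 84.6 CPM against 89.7 and 86.9 CPM in B16F10 (0.07 ± 0.034, not called). These kinesins fell by like amounts in Melan-A and stood 0.43 below and 0.07 above control in B16F10. Of the exonic bases of Kif20a, 29.3% lie on top of exons of Cdc23 on the other strand, and whether the counting used strand is not given in the sources used here. The other overlaps were 15.1% of Kif4 with Pdzd11, 11.1% of Prc1 with Rccd1, 7.09% of Plk1 with Gm44985 and under 5% in 5 further members, so reads in these exons may belong to either gene. Anln changed by -0.83, -0.33 and -0.30, Kif23 by -0.79, -0.58 and -0.33, Cit by -0.75, -0.60 and -0.36, and Ect2 by -0.70, -0.55 and -0.22.

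Separase and its inhibitor had like changes in Melan-A and B16F0 and changes of opposite sign in B16F10. Espl1 (ENSMUSG00000058290.4, chr15:102296266-102324357), which encodes separase, was at 92.2 and 97.2 CPM against 53.8 and 54.3 CPM in Melan-A (-0.81 ± 0.036), 92.7 and 89.2 CPM against 83.6 and 84.1 CPM in B16F0 (-0.12 ± 0.036), and 47.7 and 47.2 CPM against 42.7 and 42.7 CPM in B16F10 (-0.15 ± 0.040). Pttg1 (ENSMUSG00000020415.16, chr11:43420250-43426251), which encodes securin, was at 79.4 and 75.3 CPM against 46 and 46.2 CPM in Melan-A (-0.75 ± 0.046), 25 and 25.8 CPM against 23.5 and 22.9 CPM in B16F0 (-0.13 ± 0.055, edgeR adjusted p = 0.052), and 23 and 21.3 CPM against 27.8 and 29.9 CPM in B16F10 (0.38 ± 0.055, edgeR adjusted p = 6.3e-07). The rise of Pttg1 in B16F10 was the largest of any member in any line. In B16F10 separase was lowered and securin raised.

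Top2a, the topoisomerase that untangles chromosomes, and Mki67, whose protein Ki-67 coats mitotic chromosomes and is used as a proliferation marker, both fell in Melan-A but differed in the melanoma lines. Top2a (ENSMUSG00000020914.17, chr11:98992943-99024189) was at 1290 and 1270 CPM against 792 and 785 CPM in Melan-A (-0.70 ± 0.020), 716 and 723 CPM against 602 and 596 CPM in B16F0 (-0.27 ± 0.020), and 610 and 616 CPM against 580 and 570 CPM in B16F10 (-0.09 ± 0.020). Its libraries were apart in each line. Mki67 (ENSMUSG00000031004.8, chr7:135689784-135716361) was at 594 and 606 CPM in Melan-A controls and 359 and 357 CPM with SX-682 (-0.75 ± 0.024, edgeR adjusted p = 6e-21). It was at 479 and 497 CPM against 480 and 497 CPM in B16F0 and at 481 and 478 CPM against 475 and 487 CPM in B16F10, with log2 fold changes of 0.00 ± 0.024 in both (edgeR adjusted p = 0.99 and 0.93). Mki67 was thus the only member called in Melan-A alone, and its change in the B16 lines less that in Melan-A, 0.75 ± 0.029, was past the threshold. In flow cytometry, the paper reports a smaller share of Ki-67-positive cells with SX-682 in every line. That share counts cells by protein and is unlike the RNA level here, so the level Mki67 RNA in B16 does not speak to it.

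Untreated levels were also tested gene by gene. B16F0 had 29 members below Melan-A and 4 above it, with 6 not called (40.6% of all genes were lower and 35.3% higher), and the median log2 difference was -0.25. The 4 higher in B16F0 were Bub1, Bub3, Ect2 and Anln. B16F10 had 37 members below Melan-A and 2 above it, Bub3 and Mad2l1 (40.8% lower and 33.4% higher over all genes), with a median of -0.61. Against B16F0, B16F10 had 28 members lower and 6 higher, with 5 not called (31.2% lower and 30.8% higher over all genes), and the median was -0.24. The median of all genes was -0.10 for B16F10 and -0.06 for B16F0 against Melan-A, and 0 between the B16 lines. In 19 members the order was Melan-A over B16F0 over B16F10 with all 3 steps called (7.21% of all genes). Pttg1 had the widest untreated gap, at -1.61 ± 0.048 in B16F0 and -1.81 ± 0.050 in B16F10 against Melan-A, and Kif18b was next at -1.06 ± 0.039 and -1.17 ± 0.039. At the other end, Mad2l1 was at -0.25 ± 0.028 and 0.44 ± 0.027, and Bub3 at 0.08 ± 0.030 and 0.28 ± 0.030.

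Levels between genes were compared per kilobase of the length in the count table, as CPM per kilobase. In Melan-A controls they ran from 2.66 ± 0.11 for Cit (SD, n = 2) and 2.85 ± 0.22 for Kif18a, which did not differ beyond their spread, to 71.1 for Cdc20 and 142 for Top2a. Top2a was the highest member in 5 of the 6 groups on this scale, and in B16F10 with SX-682 Cdc20 was above it, at 68.3 against 63.8 CPM per kilobase.

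By median difference and range, the levels of the members were more alike over the 3 lines with SX-682 than without it. These comparisons of treated libraries between lines were added after the data were seen. With SX-682, B16F0 had 19 members above and 16 below Melan-A (35.2% higher and 40.1% lower over all genes), and the median log2 difference was 0.07. That median was 0.12 without B16F0 SX-682 replicate 1 and 0.01 without B16F0 SX-682 replicate 2. B16F10 had 20 above and 13 below Melan-A (33.6% and 40.3% over all genes), with a median of 0.09, which was 0.04 with DESeq2 or RLE scaling and 0.01 over genes with at least 10 counts in every library. B16F10 had 20 above and 12 below B16F0 (31.3% and 31.2% over all genes), with a median of 0.08. Differences thus ran in both directions, where in controls most members were lower in the B16 lines. The lines still differed in most members: 35 were called in B16F0 against Melan-A (33 in controls). For B16F10, 33 were called against Melan-A (39 in controls) and 32 against B16F0 (34 in controls). The 16 below Melan-A in B16F0 and the 12 below B16F0 in B16F10 were near the shares over all genes. The range of a member over the 3 lines had a median of 0.65 on the log2 scale in controls and 0.41 with SX-682, and it was narrower with the drug in 31 of 39 members (79.5%). Over all genes tested the median range was 0.85 in controls and 0.88 with SX-682, and 47.8% were narrower. Incenp narrowed from a range of 0.56 to 0.07, Kif11 from 0.59 to 0.08, Cenpe from 1.11 to 0.35 and Pttg1 from 1.80 to 0.99. The 8 members that did not narrow were Bub1, Bub3, Mad2l1, Cdc20, Cenpa, Spc24, Anln and Mki67, among which Cdc20 widened from 0.36 to 0.74 and Anln from 0.24 to 0.65. The ranges rest on means of 2 libraries, and no test was run on them.

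**Figure D4:**
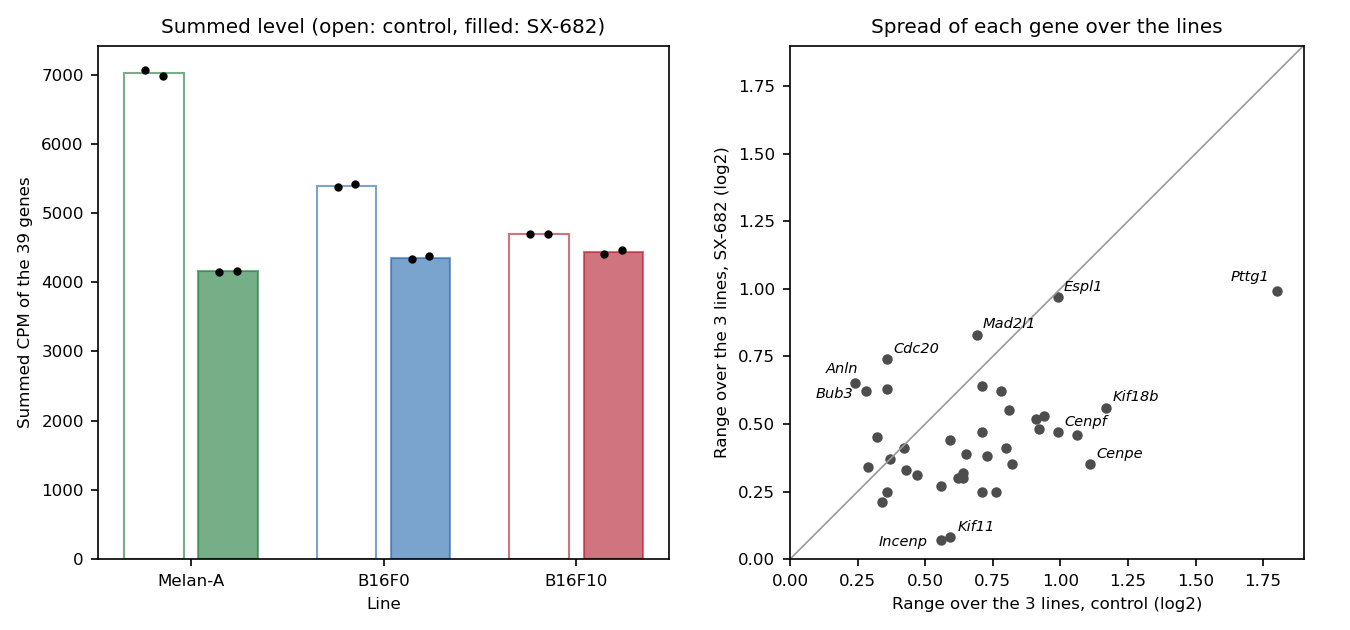
Left, the summed CPM of the 39 genes by line (bars are means of 2 libraries, points are libraries, open bars controls and filled bars SX-682). Right, each gene's range over the 3 lines in controls (horizontal) and with SX-682 (vertical), in log2 units, with the line of equal range. The treated sums lie between 4153 and 4462 CPM against 4695 to 7067 CPM in controls, and 31 of 39 genes lie below the line.

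The medians of the other genes of cell division followed the same order of lines over a narrower range. The members and these lists were chosen with earlier results of these data known, so this comparison of ranges is not independent of that choice. In 8 lists with 141 further genes, SX-682 lowered 117 and raised 6 in Melan-A, lowered 96 and raised 18 in B16F0, and lowered 72 and raised 31 in B16F10. Over all genes tested, 24.7%, 25% and 25.3% were lowered in these lines and 23.4%, 25.1% and 25.5% raised. Those shares apply to each list below as well. The medians of the 141 genes were -0.38, -0.26 and -0.13, against -0.73, -0.35 and -0.06 for the members. The mean B16 change exceeded that of Melan-A for 90 of the 141 genes and was below it for 8 (18.7% and 17.1% over all genes). Of 22 genes of mitotic entry and late cell cycle transcription, 19, 15 and 12 were lowered and 2, 3 and 5 raised, with medians of -0.54, -0.35 and -0.15. There Ccnf, the cyclin subunit of a ubiquitin ligase, had the largest mean fall, by log2 fold changes of -1.59 ± 0.049, -1.54 ± 0.051 and -1.01 ± 0.049. Lin37, a subunit of the DREAM complex, had the largest mean rise, at 0.41 ± 0.084, 0.48 ± 0.094 and 0.91 ± 0.089.

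Among 18 genes of the anaphase-promoting complex and its ubiquitin enzymes, 13, 6 and 4 were lowered and 2, 5 and 6 raised in Melan-A, B16F0 and B16F10, with medians of -0.23, -0.08 and 0.03. The B16F10 counts for these 18 genes were near the shares over all genes, 25.3% lowered and 25.5% raised. The ubiquitin-conjugating enzyme Ube2c fell by 1.14 and 0.45 on the log2 scale in the first pair and was at 0.08 ± 0.037 in B16F10 without a call, and the subunit Cdc16 rose by 0.21, 0.26 and 0.39. Of 8 condensin subunits, which compact chromosomes, 7, 7 and 5 were lowered and 0, 1 and 3 raised. The paired subunits Smc2 and Smc4 differed, with changes of -0.95, -0.89 and -0.70 for Smc2 and of -0.33, 0.09 and 0.29 for Smc4, all called. Of 14 genes of cohesin and its protectors, 12, 8 and 7 were lowered and 0, 2 and 4 raised. The cohesin acetyltransferase Esco2 changed by -0.67, -0.88 and -0.83, and the loader Nipbl was at -0.04 ± 0.031 in Melan-A without a call and rose by 0.34 and 0.46 in the B16 lines.

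Of 20 constitutive centromere proteins, 17, 19 and 13 were lowered and 0, 0 and 2 raised, with medians of -0.47, -0.41 and -0.20, and Mis18a, which helps load Cenpa, changed by -0.58, -0.72 and -0.78. Of 16 further genes of the outer kinetochore and its corona, 15, 14 and 13 were lowered and 0, 0 and 1 raised (medians -0.42, -0.33 and -0.29), and Spdl1, an adaptor for dynein, changed by -0.89, -0.57 and -0.50. Of 30 spindle, augmin and centrosome genes, 24, 20 and 13 were lowered and 1, 3 and 5 raised (medians -0.40, -0.26 and -0.08). The microtubule polymerase Ckap5 changed by -0.37 in Melan-A and rose by 0.48 and 0.58 in the B16 lines, and the centriole protein Cep152 changed by -0.55, -0.80 and -0.77. Of 13 further cytokinesis and abscission genes, 10, 7 and 5 were lowered and 1, 4 and 5 raised (medians -0.22, -0.12 and 0.04), with Cep55, which recruits the abscission machinery, at -0.91, -0.66 and -0.41 and the abscission ATPase Vps4a at 0.15, 0.10 and 0.31.

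Genes of DNA replication did not share the order of lines. Of 26 genes that license origins and run the replication fork, 23, 23 and 22 were lowered in Melan-A, B16F0 and B16F10 (24.7%, 25% and 25.3% of all genes). In the same order, 1, 1 and 0 of the 26 replication genes were raised (23.4%, 25.1% and 25.5% of all genes). Their medians, -0.35, -0.43 and -0.58, were deepest in B16F10, where the mitotic genes moved least. The mean B16 change was below that of Melan-A for 13 of them and above it for 2 (17.1% and 18.7% over all genes). The B16F10 change was below that of B16F0 for 13 of the replication genes and above it for 4 (14.9% and 15.3% over all genes). The licensing factor Cdc6 had the largest mean fall, at -1.02 ± 0.046, -0.90 ± 0.050 and -1.86 ± 0.053. Cdt1, which loads the replicative helicase together with Cdc6, had the largest mean rise, at 0.10 ± 0.035, 0.16 ± 0.034 and -0.01 ± 0.036, the last not called.

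**Figure D5:**
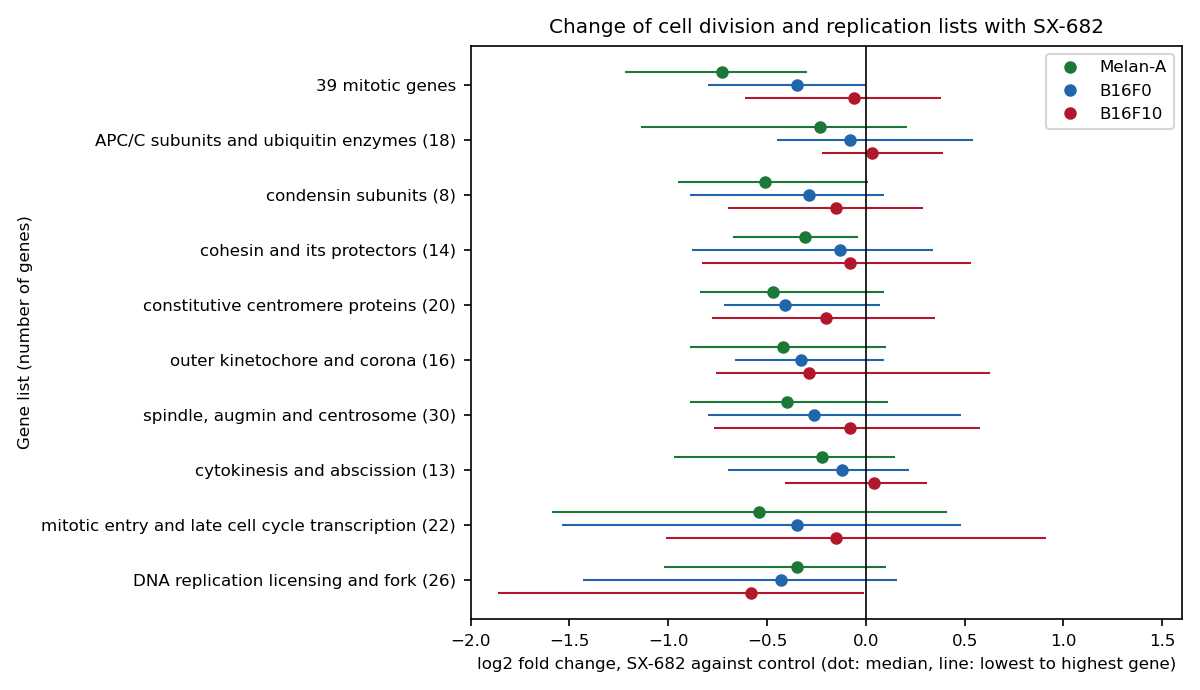
Log2 fold change of SX-682 against control (horizontal axis) for the 39 mitotic genes, 8 further cell division lists and the replication list (vertical axis). Dots are medians and lines run from the lowest to the highest gene, by line. The mitotic genes step from -0.73 through -0.35 to -0.06 from Melan-A to B16F10, and the replication genes step the other way, from -0.35 through -0.43 to -0.58.

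The coefficient of variation between replicates beyond counting noise was 2.78%, so that a log2 fold change of -0.09, as for Cenpf and Top2a in B16F10, could pass the threshold. An exact permutation of 2 libraries against 2 gives a two-sided p of 0.333 at the least, and every call therefore leans on spread shared across genes and groups.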

How the data were processed

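RNA-seq was made from 3 mouse cell lines with and without SX-682, 2 libraries a group. The authors deposited raw counts per gene with gene names, coordinates and lengths. The submitters' processing notes name cutadapt, STAR, DESeq2 and mm10, without roles or versions, and the counting program and its strand setting are not given in the sources used here. Groups came from the labels. Counts were filtered with filterByExpr, scaled by TMM and fitted with edgeR 4.0.16 in R 4.3.3 (limma 3.58.1) as 1 quasi-likelihood model of the 12 libraries with group means only, and p-values were adjusted by Benjamini-Hochberg over the 18338 genes tested, with a threshold of 0.05. Fitted fold changes used a prior count of 0.125, and the SE is the absolute log2 fold change over the root of the F statistic. The model was tested on simulated data first. DESeq2 1.42.0, RLE scaling, other filters, thresholds and fits, and leaving out each library were alternatives. Deviations of same-numbered libraries from their group means correlated at -0.028, -0.011 and -0.0089 between conditions in Melan-A, B16F0 and B16F10. No pairing by number was seen. With 1 difference between replicates in each group, this cannot exclude that same-numbered libraries shared a culture or batch.

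The members, role groups and other lists were chosen with earlier results of these data known. Libraries were given gene by gene for the member with the largest mean change and that with the widest range in each role group, the 2 highest and 2 lowest untreated B16 differences from Melan-A, and Mki67, Plk1, Aurka, Aurkb and Top2a. In other lists the largest mean rise and fall were named. Further members whose values are given were chosen after these were seen. Promoter letters came from RefSeq windows on GRCm38.p6.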

Additional observations from a re-analysis of the deposited data

Results flagged for a closer look

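The response to SX-682 differed among the 3 lines, by the F-test of the difference in edgeR, for all 39 mitotic genes (47.4% of all genes tested). The size of that difference is given here as the range of the log2 fold change, the highest of the 3 lines minus the lowest. In the group chromosomal passenger complex it was 0.31 for Aurkb, 0.62 for Incenp, 0.57 for Birc5 and 0.52 for Cdca8. In the group spindle checkpoint and its target Cdc20 it was 0.50 for Bub1, 0.38 for Bub1b, 0.36 for Bub3, 0.46 for Mad2l1, 0.52 for Ttk and 1.10 for Cdc20. In the group centromere and kinetochore it was 0.74 for Cenpa, 0.98 for Cenpe, 1.14 for Cenpf, 0.57 for Ndc80, 0.66 for Nuf2, 0.63 for Spc24 and 0.53 for Spc25. In the group spindle kinases and microtubule-associated proteins it was 0.79 for Aurka, 0.84 for Plk1, 0.90 for Tpx2, 0.84 for Nusap1, 0.76 for Dlgap5 and 0.84 for Hmmr. In the group spindle and chromosome kinesins it was 0.65 for Kif11, 0.76 for Kif2c, 0.73 for Kif4, 0.60 for Kif18a and 0.86 for Kif18b. In the group central spindle and cytokinesis it was 1.01 for Prc1, 0.48 for Ect2, 0.53 for Anln, 0.39 for Cit, 1.11 for Kif20a, 0.58 for Kif20b and 0.47 for Kif23. In the group separase and securin it was 0.69 for Espl1 and 1.13 for Pttg1. In the group chromosome structure it was 0.61 for Top2a and 0.75 for Mki67. Cenpf, Pttg1, Kif20a, Cdc20 and Prc1 had ranges above 1, and Aurkb, Bub3, Bub1b and Cit had the narrowest.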

How the results depend on the processing

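No called log2 difference of a member changed sign under any alternative run. A further limit of 0.5 on the size of the log2 fold change moved the counts most, because most changes in the B16 lines were smaller: 10 members were then lower with SX-682 in B16F0 (9.22% of all genes), and 0 higher and 1 lower in B16F10 (11.4% and 10.1%), against 37 lower in Melan-A (8%). Untreated, 0 were then higher and 12 lower in B16F0 than in Melan-A (23.2% and 29.8% of all genes), 0 and 24 in B16F10 than in Melan-A (20.2% and 30.1%), and 1 and 9 in B16F10 than in B16F0 (15.2% and 18.7%). The response was higher for 21 members in B16 than in Melan-A (5.6% of all genes) and for 4 in B16F10 than in B16F0 (4.56%). With SX-682, 2 were higher and 3 lower in B16F0 than in Melan-A (24% and 29.9%), 3 and 1 in B16F10 than in Melan-A (20.7% and 29.7%), and 4 and 3 in B16F10 than in B16F0 (16.6% and 19%), so that the balance of B16F0 against Melan-A turned from 19 and 16.

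Leaving out 1 library at a time gave 39 members lowered in Melan-A, 33 to 37 in B16F0, and 16 to 18 lowered with 9 to 10 raised in B16F10. A lone library was taken to vary like the others. Without B16F0 control replicate 1, Spc24, Kif18b and Espl1 lost their call in B16F0. Without B16F10 SX-682 replicate 1, Birc5 and Prc1 lost theirs in B16F10, and Spc24 (0.18) and Kif2c (0.13) gained one. The difference of response kept 38 to 39 members for B16 against Melan-A and 28 to 32 for B16F10 against B16F0. DESeq2 also called Kif11 and Cdca8 lowered in B16F10 and did not call Kif18b in B16F0. With the replicate number as a replicate block, the counts were those of the unblocked fit: 39 lowered in Melan-A, 36 in B16F0, 17 lowered and 9 raised in B16F10, 39 and 32 for the differences of response. Under RLE scaling the all-gene median of B16F10 against Melan-A moved from -0.10 to -0.13. Every member lay far above the floor of 3 counts.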
